A study of Mus musculus with 10 samples.

Results

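The genes described here encode receptors for the transmitters that autonomic nerves release. They are the adrenergic receptors for noradrenaline, the muscarinic receptors for acetylcholine, and the purinergic receptors for ATP, related nucleotides and adenosine. P2ry10 is a member by its symbol only, since its receptor responds to lysophospholipids and not to nucleotides. Members were all genes whose symbol falls in the Adra1, Adra2, Adrb, Chrm, P2rx, P2ry or Adora series and that had a probe set annotated to that gene alone. This gave 22 of 19937 measured genes, read by 23 of 28192 probe sets. They comprised 1 alpha1-adrenergic gene (Adra1b), 1 alpha2-adrenergic gene (Adra2c), all 5 Chrm genes, all 7 P2rx genes and 8 P2ry genes. RefSeq lists 33 symbols under the same rule, and the other 11 are not analysed here, so no beta-adrenergic gene and no adenosine receptor gene is described. Where a gene had several probe sets, which applied to P2rx3 alone, the brightest by mean over the 10 arrays was used.

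Neural crest progenitors (NCPs) were Sox10-H2BVenus+ cells at embryonic day 13, as the labels give the stage, and filled 3 arrays. They came from mice that carry a nuclear fluorescent transgene under Sox10 regulatory sequence, so the sort takes cells by the activity of that reporter and may retain early neurons that still fluoresce. The labels describe dissection of the bladder, flanking vessels, pelvic ganglia and urethra, while the study's methods describe pelvic ganglia pooled from several fetuses. Total embryo (TE) RNA filled 7 arrays, and its stage and genotype are not given in the sources used here. The comparison asks which of these receptor genes differ in level between the progenitors of the pelvic ganglia and the whole embryo.

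Adrenergic, muscarinic and P2Y receptors are G protein-coupled receptors, whereas P2X receptors are ion channels that ATP opens and that assemble as trimers. In the mature lower urinary tract, acetylcholine and ATP released by parasympathetic nerves contract the bladder, noradrenaline from sympathetic nerves acts on its neck and vessels, and ATP also excites sensory endings in its wall. Several P2Y receptors, and the P2X subunits encoded by P2rx4 and P2rx7, are also well known from macrophages, microglia and platelets.

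Sox10, the gene whose regulatory sequence drives the transgene, averaged 7.56 ± 0.40 in NCPs (SD, n = 3) and 6.56 ± 0.09 in TE (SD, n = 7) on the log2 scale of the deposited values. It differed by 1.0 as deposited on that scale (log2 fold change, adjusted p = 0.000278, limma with Benjamini-Hochberg adjustment) and 1.22 after level adjustment, but -0.69 with the arrays centred on olfactory and vomeronasal receptor genes, 3 scalings explained further on. The NCP arrays stood apart from the TE arrays in ways that touch every receptor value. Their values were spread less widely, with an SD over probe sets of 0.97 to 1.13 against 1.78 to 1.91 in TE, and they correlated less with one another, at r = 0.58 to 0.68 against 0.95 to 0.99. As read from the titles, with 2 spellings taken as 1 code, the TE arrays carry only 2 RNA codes. All 3 NCP arrays share 1 date in their titles, which they share with 1 TE array. Cell source, amount of RNA, labeling and date therefore cannot be told apart beyond what the comparison with that 1 array allows.

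As deposited, 13 of the 22 receptor genes were higher in NCPs and 2 were lower, and after level adjustment 0 were higher and 1 was lower. By that reading of the titles the 7 TE arrays carry 2 RNA codes. With the RNA code as a random block (correlation 0.68) 8 members were higher and 0 lower. Averaging arrays per RNA code left 3 higher (P2rx2, P2rx3 and P2ry10) and 0 lower. The share of all genes called was not computed for either of these RNA code fits. The background was high in both directions, since 34.8% of all 19937 genes were called higher and 31% lower as deposited. The median log2 fold change of the members was 0.63, with a range of -0.72 to 1.50, beside a median of 0.08 over all genes. On all 3 NCP arrays 11 members lay above all 7 TE arrays, which 28% of all genes did, and 0 lay below, which 24.6% did. These shares were not computed for genes of similar TE level, with which fold change varied, as shown further on. Set against the 1 TE array that shares the date of the NCP arrays, the median was 0.68, with 0 members called in either direction (limma, 2 higher and 0 lower at an unadjusted p under 0.05). With 1 array in that arm the smallest adjusted p of any member was 0.165, so the absence of calls says nothing about stability. In pools of tissue or cells, fewer cells of a type and less RNA per cell cannot be told apart.

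**Figure D1:**
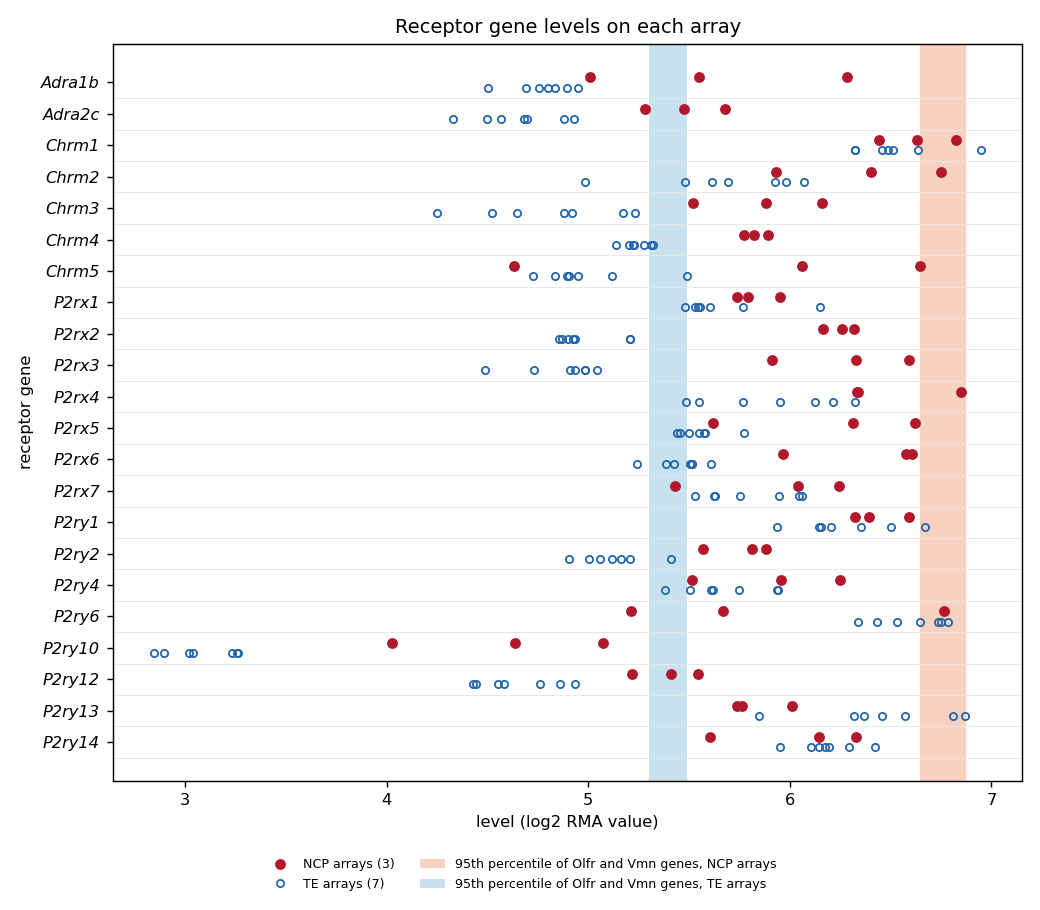
Level of each receptor gene on each array (x axis, log2 RMA value), with filled points for the 3 NCP arrays and open points for the 7 TE arrays. The shaded bands mark the range over arrays of the 95th percentile of 1194 olfactory and vomeronasal receptor genes, 6.65 to 6.88 on NCP arrays and 5.30 to 5.49 on TE arrays. Most NCP points lie left of the NCP band.

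Most of the NCP levels lay within the range of genes that few cells express. Olfactory and vomeronasal receptor genes, 1194 in all, served as a floor, because nearly all of them are used by sensory cells of the nose. Their 95th percentile was 6.65 to 6.88 on the NCP arrays and 5.30 to 5.49 on the TE arrays. By the mean of its percentiles over arrays, 0 of 22 members exceeded the 95th percentile of the floor genes in NCPs, against 12 in TE. Single arrays held 0 to 2 members above it in NCPs and 7 to 13 in TE. A member within the floor range was not shown to be expressed, and its absence was not shown either.

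The fold change also followed the level in TE. The floor genes themselves had a median log2 fold change of 1.66. With all genes split into 10 equal groups by TE level, the median log2 fold change was 1.86 in the lowest group and -2.24 in the highest. All 22 members sat in the lowest 7 groups, with TE means between 3.08 and 6.60. Each member was therefore set against the 500 genes nearest to it in mean TE level. On that basis the median difference of the members was -0.16, with 9 above and 13 below the median of their similar genes. All 22 lay between the percentiles 10.4 and 87.2 of those genes. Among the similar genes, 55.1% were called higher on average over the members, with a range of 5.2 to 99.8%, while 59.1% of the members themselves were.

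**Figure D2:**
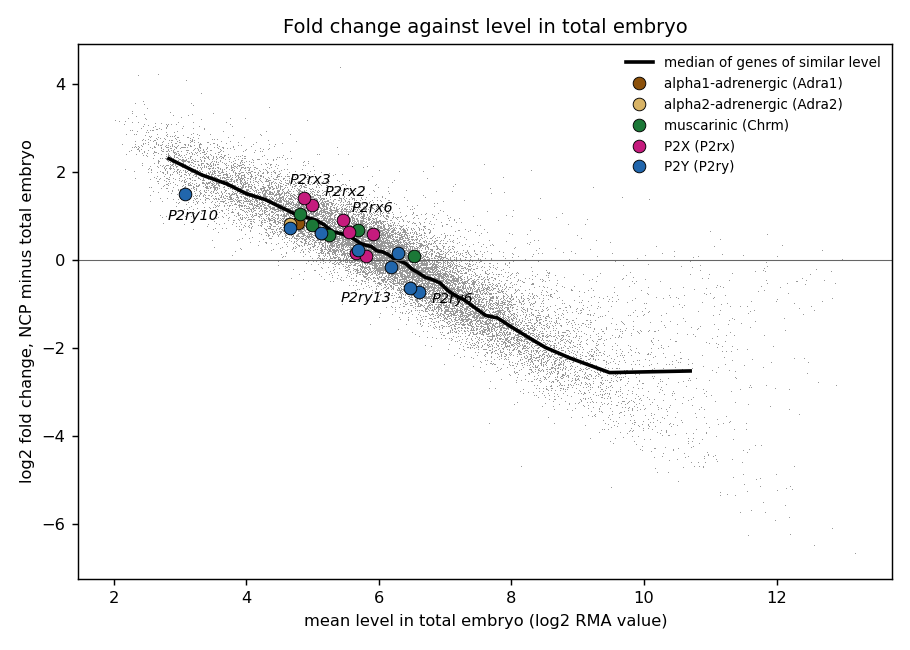
Log2 fold change as deposited, NCP minus TE (y axis), against mean TE level (x axis, log2 RMA value) for all genes (grey) and for the 22 receptor genes (colours by family). The black line joins medians of 40 equal groups of genes by TE level. The receptor genes lie along the falling line, with P2rx2, P2rx3 and P2rx6 above it and P2ry10 below it.

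The adrenergic receptors measured were one of each class. Adra1b encodes a receptor that couples to Gq and mobilizes calcium in response to noradrenaline. Its level was 6.28, 5.01 and 5.55 on NCP arrays 1, 2 and 3, while TE ranged from 4.50 through a median of 4.80 to 4.95. Every NCP array lay above every TE array, though the NCP arrays spanned more than the whole TE range. The log2 fold change was 0.84 ± 0.23 (SE, adjusted p = 0.00608, limma) as deposited, -0.22 after level adjustment and -0.23 after cyclic loess, neither of them past the threshold. Adra1b thus stood 0.17 below its similar genes, with NCP array 1 at 0.47 above and array 2 at 0.83 below theirs.

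Adra2c encodes a receptor that couples to Gi and restrains transmitter release from sympathetic endings. Its level was 5.28, 5.48 and 5.68 on the NCP arrays, while TE ranged from 4.33 through a median of 4.68 to 4.93. The groups did not overlap, and the log2 fold change was 0.82 ± 0.17 (SE, adjusted p = 0.00106, limma) as deposited, and it was -0.31 after level adjustment (adjusted p = 0.223) and -0.34 after cyclic loess (adjusted p = 0.135). With arrays averaged per RNA code neither adrenergic gene was called (adjusted p = 0.156 for Adra1b and 0.075 for Adra2c). Both adrenergic genes were within the floor range in both groups, at the percentiles 54.9 and 48.6 of the floor genes in NCPs and 83.6 and 80.3 in TE for Adra1b and Adra2c in that order.

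Of the 5 muscarinic receptors, 3 were called higher as deposited (Chrm2, Chrm3 and Chrm4) and 2 were not past the threshold. Among their similar genes 57.9% were called higher on average. After level adjustment or cyclic loess 0 of the muscarinic genes were called. Chrm1, Chrm3 and Chrm5 encode receptors that couple to Gq, and Chrm2 and Chrm4 receptors that couple to Gi. With the RNA code as a random block Chrm2 was lost (adjusted p = 0.223), and with arrays averaged per RNA code so were Chrm3 (adjusted p = 0.0505) and Chrm4 (adjusted p = 0.148). The family median was 0.68 as deposited and 0.04 against similar genes. Chrm2 is the most abundant muscarinic receptor gene of bladder muscle and heart. Its level was 5.93, 6.40 and 6.75 on the NCP arrays, while TE ranged from 4.99 through a median of 5.69 to 6.07. NCP array 1 fell inside the TE range and the other NCP arrays above it. The log2 fold change of 0.68 ± 0.25 (SE, adjusted p = 0.0264, limma) was 0.66 without NCP array 2 (adjusted p = 0.0606) and 0.49 without NCP array 3 (adjusted p = 0.124), and it was 0.23 after level adjustment (adjusted p = 0.547).

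Chrm1, known mainly from brain, glands and autonomic ganglia, had 6.82, 6.63 and 6.44 on the NCP arrays and 6.32, a median of 6.49 and 6.95 as the lowest, middle and highest TE values. The groups overlapped, and the log2 fold change of 0.10 was not past the threshold (adjusted p = 0.615, 95% interval -0.28 to 0.48). Its similar genes had a median of -0.23, so that Chrm1 stood 0.34 above them, at the percentile 78.4, and above them on each NCP array. It was 0.29 after level adjustment (adjusted p = 0.28) and -1.59 with the arrays centred on the floor genes.

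The other muscarinic genes varied mainly in how far the NCP arrays agreed. Chrm3, whose receptor drives contraction of bladder muscle, had a log2 fold change of 1.05 (adjusted p = 0.0014) as deposited and 0.01 after level adjustment. Chrm4 had the closest NCP arrays of all members, with an SD of 0.06, and a log2 fold change of 0.59 (adjusted p = 0.00211) as deposited and -0.17 after level adjustment. Chrm5 had the widest, with 6.65, 6.06 and 4.63 on the NCP arrays, which lie above and below the TE range of 4.72 to 5.49. Its log2 fold change of 0.79 was not past the threshold (adjusted p = 0.0518), but was 1.37 without NCP array 3 (adjusted p = 0.000212) and 0.88 without TE array 3 (adjusted p = 0.0402).

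Among the 7 P2X subunit genes, 5 were called higher as deposited and 2 (P2rx1 and P2rx7) were not past the threshold. Of their similar genes 56.8% were called higher on average. With the RNA code as a random block P2rx4 (adjusted p = 0.142) and P2rx5 (adjusted p = 0.0911) were lost, and with arrays averaged per RNA code P2rx2 and P2rx3 alone were called. After cyclic loess 2 were called higher (P2rx2 and P2rx3), where 14.6% of all genes were, and after level adjustment 0 were, where 8.24% were. The family median was 0.63 as deposited and 0.30 against similar genes, with 5 members above and 2 below theirs. P2rx4, a subunit of many cell types and of microglia, had 6.85, 6.34 and 6.34 on the NCP arrays, while TE ranged from 5.49 through a median of 5.95 to 6.33. The lowest NCP array lay just above the highest TE array. The log2 fold change of 0.59 ± 0.22 (SE, adjusted p = 0.0298, limma) was 0.42 without NCP array 1 (adjusted p = 0.134), and it also missed the threshold without TE array 1, 2 or 6 (adjusted p = 0.0501, 0.0542 and 0.0523). It was 0.30 after level adjustment (adjusted p = 0.352).

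P2rx7 encodes the subunit of a channel best known from macrophages, where it triggers release of inflammatory cytokines. It had 6.24, 6.04 and 5.43 on the NCP arrays, while TE ranged from 5.53 through a median of 5.75 to 6.06. NCP array 1 lay above the TE range, array 2 inside it and array 3 below it, and the log2 fold change of 0.11 was not past the threshold (adjusted p = 0.661, 95% interval -0.34 to 0.55) and was 0.24 below that of its similar genes. It was -0.06 without NCP array 1 and -0.27 after level adjustment.

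P2rx2, P2rx3 and P2rx6 are described because of their values, and were chosen after these were seen. P2rx2 and P2rx3 encode the subunits of the ATP-gated channels of sensory neurons, and P2rx2 is also expressed by autonomic neurons. P2rx3 had 6.33, 5.91 and 6.59 on the NCP arrays, while TE ranged from 4.49 through a median of 4.93 to 5.04. The groups were separated by a gap wider than the TE range, with a log2 fold change of 1.41 ± 0.19 (SE, adjusted p = 2.64e-05, limma). The second probe set of the gene gave 1.59 (adjusted p = 1.79e-05). P2rx3 was the highest of the 22 members against similar genes, 0.42 above them at the percentile 87.2, but NCP array 2 lay 0.02 below them. After cyclic loess its log2 fold change was 0.55 (adjusted p = 0.0385), after level adjustment 0.41 (adjusted p = 0.144) and with arrays centred on the floor genes -0.29.

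P2rx2 had 6.16, 6.26 and 6.32 on the NCP arrays, while TE ranged from 4.85 through a median of 4.92 to 5.21. These NCP arrays lay close together and well above every TE array, and the log2 fold change was 1.26 ± 0.15 (SE, adjusted p = 1.22e-05, limma) as deposited, 0.46 after cyclic loess (adjusted p = 0.0331), 0.34 after level adjustment (adjusted p = 0.131) and -0.43 with arrays centred on the floor genes. P2rx2 exceeded its similar genes on all 3 NCP arrays, by 0.21, 0.26 and 0.48. P2rx6, a subunit that forms channels poorly on its own, had 6.61, 5.97 and 6.58 on the NCP arrays, while TE ranged from 5.24 through a median of 5.50 to 5.61. Its log2 fold change was 0.93 (adjusted p = 0.00045, limma) as deposited, 0.32 after level adjustment (adjusted p = 0.227) and -0.77 with arrays centred on the floor genes, with NCP array 2 at 0.12 below the similar genes.

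Leaving out NCP array 2, the NCP array with the smallest spread of values, brought P2rx3 and P2rx6 past the threshold after level adjustment, at 0.63 (adjusted p = 0.0165) and 0.54 (adjusted p = 0.0181). This combination was chosen after the data were seen, and array 2 is the NCP array on which both genes lay lowest, so leaving it out raises both values by construction. Of the other subunits, P2rx5 had a log2 fold change of 0.63 (adjusted p = 0.0135) as deposited, which was 0.41 without NCP array 2 (adjusted p = 0.0711). P2rx1, the main P2X subunit of bladder smooth muscle, had 0.17 (adjusted p = 0.413) and lay below its similar genes on all 3 NCP arrays.

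Of the 8 P2Y genes, as deposited 3 were higher (P2ry2, P2ry10 and P2ry12), 2 were lower (P2ry6 and P2ry13) and 3 were not past the threshold. Their similar genes were called higher in 43.4% and lower in 8.55% on average. With the RNA code as a random block only P2ry10 was called, with an adjusted p of 0.0722 for P2ry2, 0.0549 for P2ry12, 0.132 for P2ry6 and 0.184 for P2ry13. After cyclic loess 0 were higher and 2 lower (P2ry10 and P2ry13), where 17.1% of all genes were lower. The family median was 0.19 as deposited, and -0.28 against similar genes, with 1 member above (P2ry1) and 7 below theirs. P2ry6 encodes a receptor for UDP that couples to Gq. It had 5.21, 5.67 and 6.77 on the NCP arrays, while TE ranged from 6.34 through a median of 6.64 to 6.78. NCP arrays 1 and 2 lay below the TE range and array 3 near its top. The log2 fold change of -0.72 ± 0.27 (SE, adjusted p = 0.0303, limma) was -0.39 without NCP array 1 (adjusted p = 0.194), -0.61 without NCP array 2 (adjusted p = 0.1), -0.69 without TE array 3 (adjusted p = 0.051) and -0.70 without TE array 6 (adjusted p = 0.0517). After level adjustment it was -0.47 (adjusted p = 0.24).

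P2ry1, a receptor for ADP that couples to Gq, had 6.59, 6.32 and 6.39 on the NCP arrays, while TE ranged from 5.93 through a median of 6.20 to 6.67. All NCP arrays lay inside the TE range, and the log2 fold change of 0.16 was not past the threshold (adjusted p = 0.461, 95% interval -0.24 to 0.55), while P2ry1 exceeded its similar genes on each NCP array, by 0.15 over the 3.

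P2ry10, P2ry12, P2ry13 and P2ry14 were likewise chosen after their values were seen. P2ry10 had 5.07, 4.64 and 4.03 on the NCP arrays, while TE ranged from 2.85 through a median of 3.04 to 3.26. The groups did not overlap, yet P2ry10 was at the percentile 15 of the floor genes in NCPs and 21.5 in TE. Its log2 fold change was 1.50 ± 0.21 (SE, adjusted p = 4.51e-05, limma) as deposited and -0.69 after level adjustment (adjusted p = 0.0388), so that the same gene was called in opposite directions. Of its similar genes, 99.8% were called higher as deposited, and P2ry10 stood 0.62 below them, the lowest of the members. It was the 1 member called lower after level adjustment, where 8.69% of all genes were, and without NCP array 2 its value was -0.63 (adjusted p = 0.0747).

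P2ry12, P2ry13 and P2ry14 lie beside one another on chromosome 3 of the mouse. P2ry12 and P2ry13 encode receptors for ADP that couple to Gi and are known from microglia, with P2ry12 also the ADP receptor of platelets, and P2ry14 encodes a receptor for UDP-sugars. No gene starts between P2ry12 and P2ry13, and 3 start between P2ry13 and P2ry14, within the span of Med12l. As deposited the 3 differed in sign, which is why the 250 bases upstream of each start are shown (RefSeq, GRCm38.p6, minus strand of chromosome 3). Capitals mark the letters ACAAAG or CTTTGT, a form of the core bound by SOX proteins, and GAGGAA or TTCCTC, a form of the core bound by ETS factors of blood cells. They cover chr3:59262986-59263235 for P2ry12, chr3:59210883-59211132 for P2ry13 and chr3:59153493-59153742 for P2ry14, which has 4 annotated starts and is shown at the most upstream one.
P2ry12: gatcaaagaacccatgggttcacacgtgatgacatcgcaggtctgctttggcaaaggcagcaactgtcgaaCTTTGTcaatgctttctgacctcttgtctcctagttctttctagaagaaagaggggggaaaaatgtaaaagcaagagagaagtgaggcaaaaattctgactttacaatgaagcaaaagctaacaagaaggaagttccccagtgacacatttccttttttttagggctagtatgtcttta
P2ry13: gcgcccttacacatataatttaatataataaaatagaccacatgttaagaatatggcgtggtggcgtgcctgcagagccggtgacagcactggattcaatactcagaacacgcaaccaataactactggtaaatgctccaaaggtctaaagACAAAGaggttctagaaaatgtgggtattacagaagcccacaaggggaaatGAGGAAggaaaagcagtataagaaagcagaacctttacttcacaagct
P2ry14: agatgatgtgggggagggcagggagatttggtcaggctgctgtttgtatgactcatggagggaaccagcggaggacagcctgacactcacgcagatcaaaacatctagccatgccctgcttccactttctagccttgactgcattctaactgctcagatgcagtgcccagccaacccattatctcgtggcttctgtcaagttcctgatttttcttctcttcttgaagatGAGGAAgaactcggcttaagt
The SOX letters occurred 1 time in the P2ry12 window, 1 time in P2ry13 and 0 times in P2ry14, on either strand, and in 16.5% of all 32851 mouse promoter windows of this length. The ETS letters occurred 0 times in P2ry12, 1 time in P2ry13 and 1 time in P2ry14, and in 23.3% of all windows. A match describes the letters only. Other forms of either core were not searched, so a count of 0 does not mean that a window lacks such a core.

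P2ry12 had 5.41, 5.22 and 5.55 on the NCP arrays, while TE ranged from 4.43 through a median of 4.58 to 4.94. The groups did not overlap, and the log2 fold change was 0.74 (adjusted p = 0.00186, limma) as deposited and -0.39 after level adjustment (adjusted p = 0.137). P2ry13 had 5.76, 6.01 and 5.74 on the NCP arrays, while TE ranged from 5.85 through a median of 6.46 to 6.87. NCP array 2 overlapped the lowest TE array, and the other NCP arrays lay below TE. The log2 fold change of -0.63 (adjusted p = 0.0196, limma) was -0.59 without NCP array 1 (adjusted p = 0.0522), -0.58 without NCP array 3 (adjusted p = 0.0542), -0.65 after cyclic loess (adjusted p = 0.0323) and -0.50 after level adjustment (adjusted p = 0.123).

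P2ry14 had 6.14, 5.60 and 6.33 on the NCP arrays, while TE ranged from 5.95 through a median of 6.18 to 6.42. The groups overlapped, and its log2 fold change of -0.16 was not past the threshold (adjusted p = 0.453, 95% interval -0.55 to 0.23). Against similar genes the neighbouring genes no longer differed in sign. P2ry12 stood 0.33, P2ry13 0.49 and P2ry14 0.23 below theirs. P2ry2 and P2ry6, receptors for ATP or UTP and for UDP, also lie side by side, with 0 genes starting between them on chromosome 7. P2ry2 had a log2 fold change of 0.63 (adjusted p = 0.00358) as deposited and -0.20 after level adjustment, while the UTP receptor gene P2ry4 had 0.23 (adjusted p = 0.314) as deposited and -0.23 after level adjustment.

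**Figure D3:**
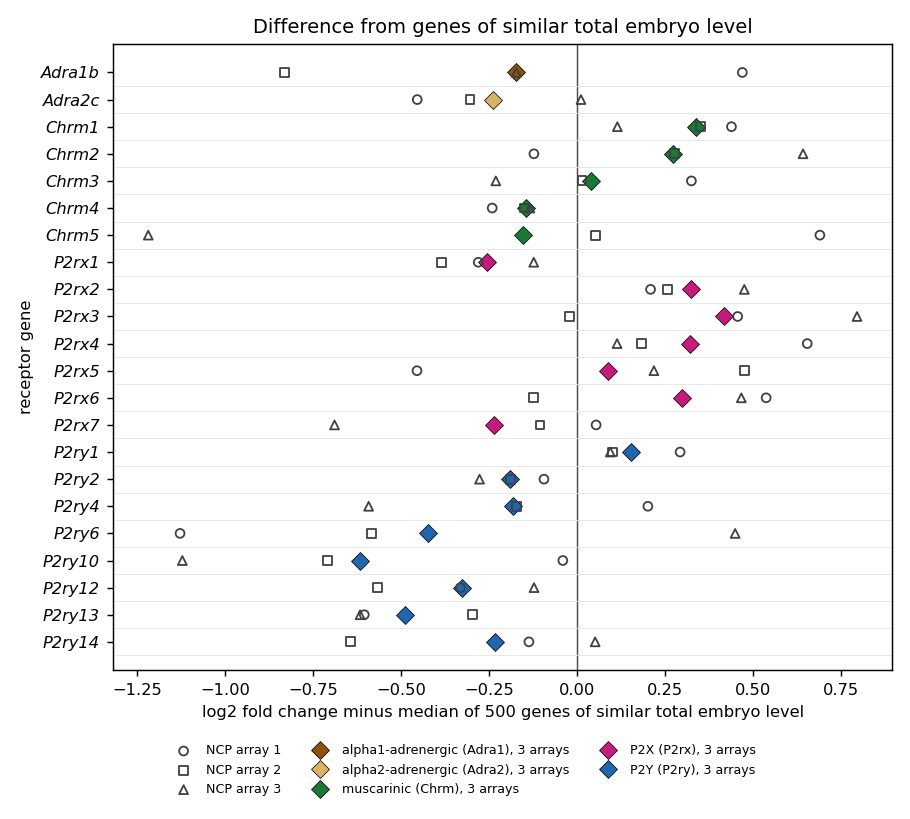
Receptor genes on the log2 scale, each given as its fold change minus the median of the 500 genes of most similar TE level (x axis). Diamonds give the value over the 3 NCP arrays and open symbols each NCP array. Of 7 P2X genes 5 lie above 0, and of 8 P2Y genes 1 does.

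Side by side, the families differed in their position against similar genes, which is given as a description with no test. On NCP arrays 1, 2 and 3 the median of the P2X genes was 0.21, -0.02 and 0.22, that of the P2Y genes -0.12, -0.43 and -0.20, and that of the muscarinic genes 0.33, 0.05 and -0.13. The P2X median exceeded the P2Y median on each NCP array. When the TE level came from the arrays of one title series and the fold change from those of the other, the P2X median was 0.32 or 0.13 and the P2Y median -0.28 or -0.20. With dim probe sets left out, which kept 12 members, the P2X median was -0.05 and the P2Y median -0.25. That filter removed P2rx2 and P2rx3, which stood 0.33 and 0.42 above their similar genes. It also removed P2ry2, P2ry10 and P2ry12, which stood 0.19, 0.62 and 0.33 below theirs. Members that exceeded their similar genes on all 3 NCP arrays numbered 4 (Chrm1, P2rx2, P2rx4 and P2ry1), and 6 lay below theirs on all 3 (Chrm4, P2rx1, P2ry2, P2ry10, P2ry12 and P2ry13). The share of all genes that did either was not computed, so these counts cannot be set against a background.

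**Figure D4:**
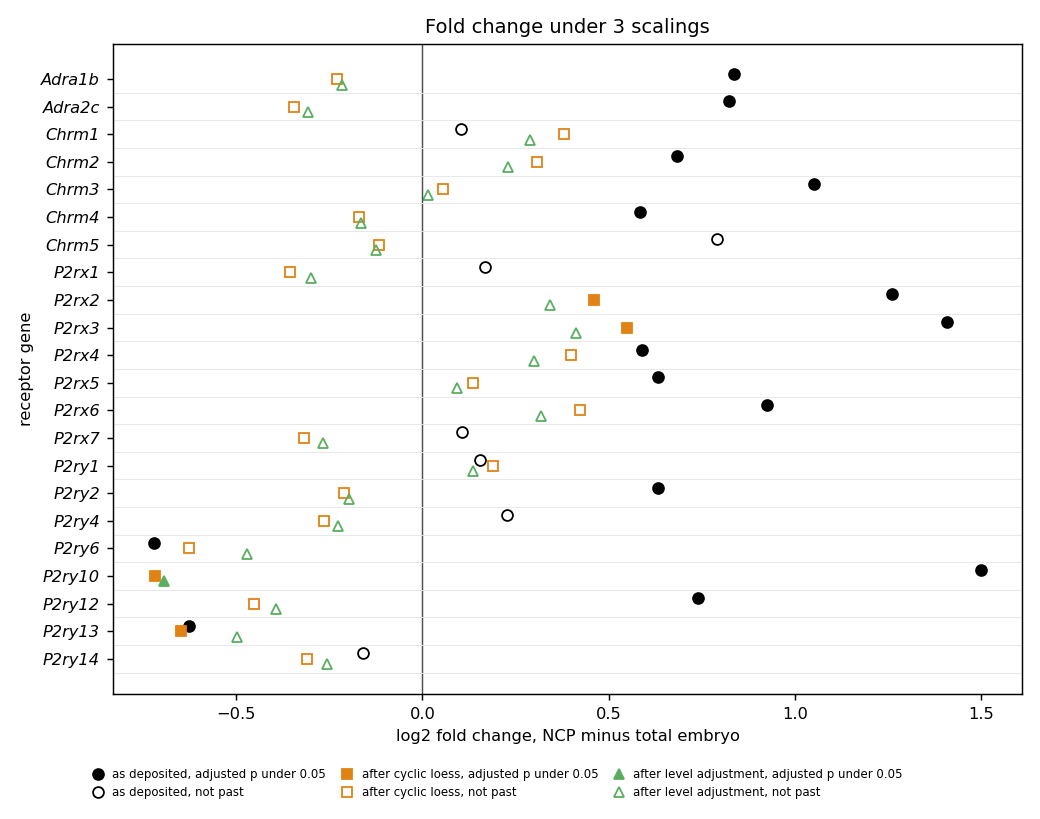
Difference of each receptor gene, NCP minus TE on the log2 scale (x axis), drawn as circles for the deposited values, squares for cyclic loess and triangles for level adjustment. Filled symbols have an adjusted p under 0.05. P2ry10 is called higher as deposited and lower after both other scalings, while P2rx2 and P2rx3 are called higher in the circles and squares alone.

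Because fold change and level were related, many directions changed with the scaling of the arrays. Level adjustment subtracts from each array its smooth trend on mean TE level. Cyclic loess removes such trends between all pairs of arrays. The median of all genes was then -0.03 and -0.04, and the median of the receptor genes -0.18 and -0.19, with 10 of 22 members turned in sign by each. Centring the arrays on the floor genes subtracts 1.69 from every log2 fold change. It left the receptor genes at a median of -1.06, with 0 called higher and 20 lower (limma, Benjamini-Hochberg). The median of all genes, 0.08 as deposited, falls by the same 1.69. The share of all genes called under this centring was not computed. No member was called in the same direction as deposited and after level adjustment. The level trend and the difference between NCPs and TE cannot be told apart in these arrays.

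Genes that act beside these receptors were counted in the same way. Their counts stand beside 34.8% of all genes called higher and 31% lower as deposited, and 8.24% and 8.69% after level adjustment. Of 23 measured genes for G protein alpha subunits, adenylyl cyclases and phospholipase C beta isoforms, 4 were higher and 9 lower as deposited, with a median of -0.27. After level adjustment 1 was higher (Plcb4, 0.77, adjusted p = 0.00596) and 2 were lower (Gnaz, -0.67, and Adcy3, -0.58). Plcb4, a phospholipase C activated by Gq, had only 0.04 as deposited. Of 5 receptor kinase and arrestin genes, which switch receptors off, 2 were higher (Grk4 and Grk6, 1.60 and 0.84) and 0 lower as deposited, and 0 were called after level adjustment.

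Of 15 genes that release, degrade or take up nucleotides and adenosine, 4 were higher and 5 lower as deposited. Panx1, a channel through which cells release ATP, averaged 7.09 ± 0.41 in NCPs (SD, n = 3) and 6.56 ± 0.23 in TE (SD, n = 7). Its log2 fold change was 0.53 (adjusted p = 0.0347) as deposited, 0.74 after level adjustment (adjusted p = 0.0207) and -1.17 with arrays centred on the floor genes. Nt5e, the enzyme that makes adenosine from AMP outside cells, averaged 5.68 ± 0.49 in NCPs and 7.01 ± 0.19 in TE, with a log2 fold change of -1.33 (adjusted p = 0.000106) as deposited and -0.71 after level adjustment (adjusted p = 0.0343). Panx1 and Nt5e were the only genes of the 4 signalling lists, beside Maob, called in the same direction under both. Slc17a9, which loads ATP into vesicles, had 0.15 as deposited (adjusted p = 0.485) and -1.01 after level adjustment (adjusted p = 0.00395).

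Of 12 genes for supply and removal of noradrenaline and acetylcholine, 6 were higher and 2 lower (Maoa and Maob) as deposited, with Slc6a2 (1.28) and Slc5a7 (1.25), the transporters that take up noradrenaline and choline, the highest. After level adjustment 0 of them were higher and 1 (Maob) was lower, with Slc6a2 at 0.39 and Slc5a7 at -0.04. Maob, which breaks down amines, was lower under both, at -2.38 and -0.77 (adjusted p = 1.10e-06 and 0.0139).

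Marker genes of cell types were counted beside the receptor genes, and their part in these results was not tested. Of all genes, 34.8% were called higher and 31% lower as deposited, and 8.24% and 8.69% after level adjustment. As deposited, the median log2 fold change was -0.86 for genes with a TE mean of 6.98 to 7.53. It was -1.45 at 7.53 to 8.36 and -2.24 at 8.36 to 13.19. Macrophage markers, relevant to P2ry6, P2ry12, P2ry13 and P2rx7, were lower in 5 of 6 as deposited. Their mean level per array was 6.0 to 6.26 in NCPs and 7.21 to 7.78 in TE. Cx3cr1 was the sixth, at -0.38 (adjusted p = 0.113), and after level adjustment 1 of 6 was lower (Fcer1g, -1.39). In NCPs 1 of the 6 (Tyrobp) exceeded the 95th percentile of the floor genes. Smooth muscle markers, relevant to Chrm2, Chrm3, Adra1b and P2rx1, were lower in 6 of 6 as deposited and in 2 of 6 after level adjustment, with mean levels of 6.17 to 6.52 in NCPs and 8.37 to 9.02 in TE, and 0 of 6 exceeded that percentile in NCPs. Of 3 measured megakaryocyte and platelet markers, relevant to P2ry1 and P2ry12, 2 were higher and 1 lower as deposited, and 1 was higher and 1 lower after level adjustment. Of 7 autonomic neuron markers 4 were higher and 2 lower as deposited, and 2 were higher after level adjustment (Isl1 and Prph, 1.13 and 0.77). Of 7 neural crest and glial markers 3 were higher and 3 lower as deposited, and 2 were higher and 2 lower after level adjustment. As deposited, endothelial and liver markers were lower in 6 of 6 each, erythroid markers were higher in 1 and lower in 2 of 5, and brain markers were higher in 2 and lower in 0 of 4. After level adjustment the liver markers were lower in 6 of 6, and 0 of the endothelial, erythroid and brain markers were called.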

How the data were processed

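The authors deposited log2 values per probe set, which were used unchanged. Mouse gene arrays from Affymetrix had been normalized by RMA, a multi-array average, for which the labels name Expression Console 1.1. Which arrays were normalized together and the genome build of the array annotation are not given in the sources used here. The labels name a One-Cycle labeling kit, while the study's methods name a NuGEN amplification. Of 34760 probe sets, 6568 controls were left out. Of the rest, 21640 were annotated to 1 symbol, 1321 to several and 5231 to none, and 22 of 22 members matched RefSeq.

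NCPs (3 arrays) and TE (7 arrays) were grouped by the tissue label and compared in limma 3.58.1 (R 4.3.3) by its moderated test, whose prior had 4.66 degrees of freedom, and Benjamini-Hochberg adjustment over 28192 probe sets at a threshold of 0.05. Nothing in the labels says that arrays of a group came from separate cultures or litters. The study's methods describe at least 3 independent pools, and the 3 NCP arrays carry 3 RNA codes. The 7 TE arrays carry 2, so those that share a code may be repeats of 1 RNA. The p-values therefore measure the spread between these arrays, which may be technical, and the number of arrays limits the precision. RNA codes and dates were read from the sample titles, which do not explain them. The code in the title of TE array 6 is spelled slightly differently from that of TE arrays 3, 4 and 5. It was taken as the same code, and the fits by RNA code rest on that reading. Similar genes were the 500 nearest in mean TE level. Level adjustment used lowess (span 0.3). The fits were tested on data simulated from the TE mean and SD of each probe set, with independent arrays and no trend on level. That test does not show how the fits perform with the wider spread of the NCP arrays. Nor does it cover the level trend or TE arrays that share an RNA code. Per-array values were set to be given for the 2 members of each family with the highest mean and for any member called alike as deposited and after level adjustment, and exceptions are named. Alternatives changed the arrays, block, scaling, filters, prior, weights, probe set choice and window of similar genes. Members, lists and alternatives were chosen with earlier results of these data known. Figures were drawn with matplotlib 3.10.9 in Python 3.11.15.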

Additional observations from a re-analysis of the deposited data

Results flagged for a closer look

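Among the 7 TE arrays, 23 genes (the 22 receptor genes and Sox10) were searched for an array far from the rest by Dixon's ratio. Such an array was found for 2 of the 23 genes, where chance flags about 1 gene in every 20 searched. P2rx5 was at 5.77 on TE array 7, against 5.58 on the nearest and 5.44 on the farthest of the other TE arrays. Sox10 was at 6.38 on TE array 2, against 6.53 on the nearest and 6.65 on the farthest. The groups of 3 NCP arrays were not searched.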

How the results depend on the processing

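Differences from similar genes were recomputed under 29 alternative settings and counts and fold changes under 25 of them (24 for members that were left out as dim), 10 of which left out 1 array. Leaving out 1 array gave 11 to 14 members called higher and 0 to 2 lower, a median log2 fold change of 0.54 to 0.66 and a median difference from similar genes of -0.18 to -0.014 (the last without NCP array 3). Without NCP array 1, 0 were lower (limma), and 1 was without NCP array 2 or 3 or TE array 3 or 6. As deposited 13 were higher and 2 lower. Among the alternative settings, the share of all genes called was computed for level adjustment and cyclic loess alone. With TE arrays of the NCP title series only, 8 were higher and 1 lower, and with TE arrays of the other title series 10 and 0. With the 1 TE array of the same date 0 were called (limma, 2 higher and 0 lower unadjusted), with a median of 0.68. Averaging arrays per RNA code left 3 (P2rx2, P2rx3 and P2ry10) and 0 (7 and 0 unadjusted), the RNA code as a random block 8 and 0, and array weights 8 and 0. Quantile normalization gave 4 and 1, with a median of 0.12 and a difference from similar genes of -0.28. Cyclic loess gave 2 higher and 2 lower, with a median of -0.19. Centring on array medians gave a median of 0.51. Centring on the floor genes gave 0 higher and 20 lower, with a median of -1.06. Level adjustment gave 0 higher and 1 lower (2 and 3 unadjusted), with a median of -0.18, and without NCP array 2, a setting chosen after the data were seen, 2 and 0, with a median of -0.14. Leaving out dim probe sets kept 12 members and gave 4 higher, with a median of 0.16.

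The sign of the log2 fold change changed as follows. With the floor genes as centre these were Adra1b (-0.86), Adra2c (-0.87), Chrm1 (-1.59), Chrm2 (-1.01), Chrm3 (-0.64), Chrm4 (-1.11), Chrm5 (-0.90), P2rx1 (-1.53), P2rx2 (-0.43), P2rx3 (-0.29), P2rx4 (-1.10), P2rx5 (-1.06), P2rx6 (-0.77), P2rx7 (-1.59), P2ry1 (-1.54), P2ry10 (-0.19), P2ry12 (-0.95), P2ry2 (-1.06) and P2ry4 (-1.47). With cyclic loess they were Adra1b (-0.23), Adra2c (-0.34), Chrm4 (-0.17), Chrm5 (-0.12), P2rx1 (-0.35), P2rx7 (-0.32), P2ry10 (-0.72), P2ry12 (-0.45), P2ry2 (-0.21) and P2ry4 (-0.27). With level adjustment they were Adra1b (-0.22), Adra2c (-0.31), Chrm4 (-0.17), Chrm5 (-0.13), P2rx1 (-0.30), P2rx7 (-0.27), P2ry10 (-0.69), P2ry12 (-0.39), P2ry2 (-0.20) and P2ry4 (-0.23), and without NCP array 2 Adra2c (-0.26), Chrm4 (-0.17), Chrm5 (-0.23), P2rx1 (-0.25), P2rx5 (-0.12), P2rx7 (-0.34), P2ry10 (-0.63), P2ry12 (-0.26), P2ry2 (-0.20) and P2ry4 (-0.25). With quantile normalization they were Adra2c (-0.048), P2rx1 (-0.22), P2rx7 (-0.22), P2ry10 (-0.057), P2ry12 (-0.21) and P2ry4 (-0.12). With median centring they were Chrm1 (-0.018) and P2rx7 (-0.017), with TE arrays of the NCP title series Chrm1 (-0.019) and P2ry1 (-0.0069), and with the TE array of the same date P2ry1 (-0.24). Without NCP array 1 it was P2rx7 (-0.064) and without NCP array 2 P2ry14 (0.052). P2rx7 ranged from -0.064 to 0.34 and P2ry14 from -0.31 to 0.052 over the arrays left out. The causes were not tested. No paired analysis was possible because the labels give NCP and TE no shared replicate numbers. By the mean of their percentiles over the NCP arrays, 0 of 22 members exceeded the 95th percentile of the floor genes. The share of all genes that did was not computed.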
